A study of Mus musculus with 21 samples.

Results

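A group of 4 mature miRNAs of blood cells was followed through kidney injury: both arms of miR-142, together with miR-150-5p and miR-342-3p. They were taken by name from a table of 1125 mature miRNAs, and 4 of 4 were found and passed the filter on low counts, which left 431 miRNAs tested. The samples were whole kidneys of male BALB/c mice aged 12 weeks, collected at day 0 and on days 1 to 3, 7, 14 and 28 after an injection of folic acid at 250 mg/kg, prepared in sodium bicarbonate. The 21 small RNA libraries fall into 7 groups of 3. Whether mice of day 0 had been injected is not in the labels, and untreated or vehicle mice of the later days were not analysed here, so folic acid, vehicle, age and collection day cannot be told apart. Separate mice are not named for the replicates either, and p-values then cover only the spread among libraries, which may be technical.

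Folic acid at high doses precipitates in and injures kidney tubules, and leukocytes enter the tissue during the inflammation and fibrosis that follow. miRNAs are short RNAs cut from hairpin precursors. One arm or the other, called 5p or 3p, is loaded into Argonaute, and bases 2 to 8 of the mature strand, the seed, choose the transcripts that are repressed. miR-142 is produced by nearly all blood cell lineages and is widely used as a mark of leukocyte RNA. miR-150-5p is abundant in mature B and T lymphocytes and is known for repressing Myb. miR-342-3p is known from lymphoid and other blood cells and lies within Evl, a gene of actin regulation. In whole tissue, a larger number of cells of a type and more of a miRNA per cell cannot be told apart.

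RefSeq entries on GRCm38.p6 matched 3 of the 4 miRNAs, and these are printed 5′ to 3′ with the seed in capitals to show that the miRNAs compared are distinct in their targeting sequence.
miR-142-3p: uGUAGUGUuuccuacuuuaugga
miR-142-5p: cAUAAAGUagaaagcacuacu
miR-342-3p: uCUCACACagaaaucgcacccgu
The 3 seeds are distinct. No other of the 1679 mature mouse miRNA names in the RefSeq table carries any of them. The RefSeq entries of miR-142 are named miR-142a-3p and miR-142a-5p. Both arms come from 1 hairpin of 64 bases at chr11:87756864-87756927 on the plus strand, shown with the mature arms in capitals because the arms are compared below.
Mir142: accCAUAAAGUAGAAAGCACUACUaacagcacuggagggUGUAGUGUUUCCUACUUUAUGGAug
The hairpin lies in the noncoding gene Mir142hg, outside its annotated exons (GENCODE M21). A second hairpin, Mir142b, is annotated on the opposite strand of the same place, and whether the counting used strand is not given in the sources used here. The mature miR-342-3p lies at chr12:108658680-108658702 on the plus strand, in an intron of Evl.

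Levels are CPM (each library's reads divided by its own total) after TMM scaling, which adjusts each library for its composition. Library depth ran from 2875675 to 7110546 recovered reads. The least covered value was 119 reads for miR-342-3p, 185 for miR-142-3p, 718 for miR-150-5p and 1954 for miR-142-5p. The tubular miRNA miR-192-5p, checked against the tissue label, stood between 109143 and 129013 CPM in the day 0 libraries. At day 0 miR-142-5p ranked 73 among all miRNAs, miR-150-5p 94, miR-142-3p 180 and miR-342-3p 206. At day 7 the ranks were 42, 104, 108 and 142. These ranks compare read levels of different sequences, whose capture in the library was not measured.

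miR-142-3p rose on all 6 later days and stood highest on days 3 and 7. Its fold changes over day 0 there were 4.05 and 4.23, taken on the log2(CPM + 1) scale. The day 0 libraries held 54.7, 52.8 and 53.6 CPM. On day 1 they held 99.9, 87.1 and 125 CPM, and on day 2 they held 130.4, 108 and 125 CPM. All 18 later libraries were above all 3 of day 0. The day 3 libraries held 186, 308 and 187 CPM, and those of day 7 held 257, 280.3 and 169.5 CPM. The day 14 libraries held 201, 199 and 189 CPM, and those of day 28 held 112, 107 and 135 CPM. The level on days 3 and 7 had a wide spread, 227 ± 70.1 and 236 ± 58.4 CPM (SD, n = 3), against 53.7 ± 0.964 at day 0. On the log2(CPM + 1) scale the change from day 0, tested with limma, was already 0.93 a day after injection (SE 0.19, adjusted p = 0.001). Day 3 gave 2.02 (SE 0.19, adjusted p = 2.36e-08) and day 7 gave 2.08 (SE 0.19, adjusted p = 1.48e-08). By day 28 it was 1.12 (95% interval 0.73 to 1.51, adjusted p = 0.000283), a 2.17-fold excess over day 0. Ordered by mean, day 0 was lowest, then days 1, 28 and 2, whose ranges met neighbour to neighbour, then days 14, 3 and 7, which also overlapped. The libraries of day 2 and day 14 did not overlap.

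miR-142-5p, the more abundant arm, also rose on all 6 later days and had its highest mean on day 7. Its day 0 libraries held 509, 637 and 656 CPM, those of day 1 856, 755 and 808 CPM, and those of day 2 1029.9, 984 and 914 CPM. All 18 later libraries were again above day 0. On day 3 it stood at 1361, 1738 and 1173 CPM, and on day 7 at 1635, 2224 and 1489 CPM. The day 14 libraries held 1878, 1522 and 1569.9 CPM, and those of day 28 held 1415, 1303 and 1405 CPM. The log2 fold change was 0.43 on day 1 (95% interval 0.13 to 0.74, limma adjusted p = 0.0357). This first step was the least secure: its adjusted p was 0.158 without day 0 replicate 1, 0.0525 without day 0 replicate 3, 0.109 and 0.0816 without day 1 replicates 1 and 3, and 0.0772 with no filter. On the log2 scale day 3 then gave a change of 1.23, day 7 gave 1.56 (SE 0.15, adjusted p = 2.61e-08) and day 14 gave 1.46. At day 28 it was still 1.20 (95% interval 0.89 to 1.51, adjusted p = 8.17e-06). Days 0, 1 and 2 were separate from each other in that order, while days 28, 3, 14 and 7, the upper part of the order, overlapped neighbour to neighbour.

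miR-342-3p, at a lower level, was called higher from day 2 on and had its highest mean on day 7. Its day 0 libraries held 31.0, 35.6 and 38.5 CPM, and those of day 1 held 38.3, 38.6 and 45.5 CPM. These 2 days overlapped, and the day 1 difference did not pass (log2 fold change 0.22, 95% interval -0.16 to 0.59, limma adjusted p = 0.392). On day 2 the libraries held 57.4, 58.8 and 55.7 CPM, above all of days 0 and 1 (0.70, SE 0.18, adjusted p = 0.0031). Day 3 gave 73.9, 95 and 81.3 CPM, day 7 gave 142, 109.9 and 100.4 CPM, and day 14 gave 93.9, 79.3 and 135 CPM. The change was greatest on day 7, at 1.71 (SE 0.18, adjusted p = 9.58e-08), a 3.27-fold excess. On day 28 the libraries held 76.0, 56.4 and 82.6 CPM, and the change was 1.00 (95% interval 0.63 to 1.37, adjusted p = 0.000518). From day 2 upward the order was days 2, 28, 3, 14 and 7, and each neighbour overlapped the next. The opposite arm of its hairpin, miR-342-5p, was scarce, at 1.49 ± 0.213 CPM on day 0 and 6.53 ± 1.06 on day 3 (SD, n = 3). It was higher by 1.12 on day 2 and by 1.59 on day 3 (limma adjusted p = 0.00202 and 6.85e-05). It was also called higher on day 7, by 1.14, and on day 14, by 1.22. At day 28 its difference of 0.36 did not pass (limma adjusted p = 0.435). Its reads ran from 5 to 38 per library.

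miR-150-5p did not share this course: it was lower on day 2, and no later day was called higher than day 0. Its day 0 libraries spread from 248 through 297 to 374 CPM, and those of day 1 held 245, 232 and 268 CPM. On day 2 they held 157, 176 and 250.0 CPM, so that 2 of 3 lay under all of day 0 and the other overlapped it. The day 2 change was -0.66 on the log2 scale (95% interval -1.07 to -0.25, limma adjusted p = 0.00975). With library totals in place of TMM it was -0.47 and did not pass (adjusted p = 0.0662). Day 3 gave 242, 321 and 281 CPM, day 7 gave 207, 344 and 256 CPM, and day 14 gave 402, 349 and 258 CPM. The day 28 libraries held 375, 388 and 358 CPM, at the upper end of the course. Its 95% interval against day 0 was -0.52 to 0.30 for day 3, -0.61 to 0.21 for day 7, -0.28 to 0.54 for day 14 and -0.10 to 0.71 for day 28. These intervals leave out a rise of the size seen in either miR-142 arm on days 3, 7 and 14. All days of its order overlapped their neighbours. Its other arm, miR-150-3p, had a mean under 2 CPM on each day and was not tested.

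**Figure D1:**
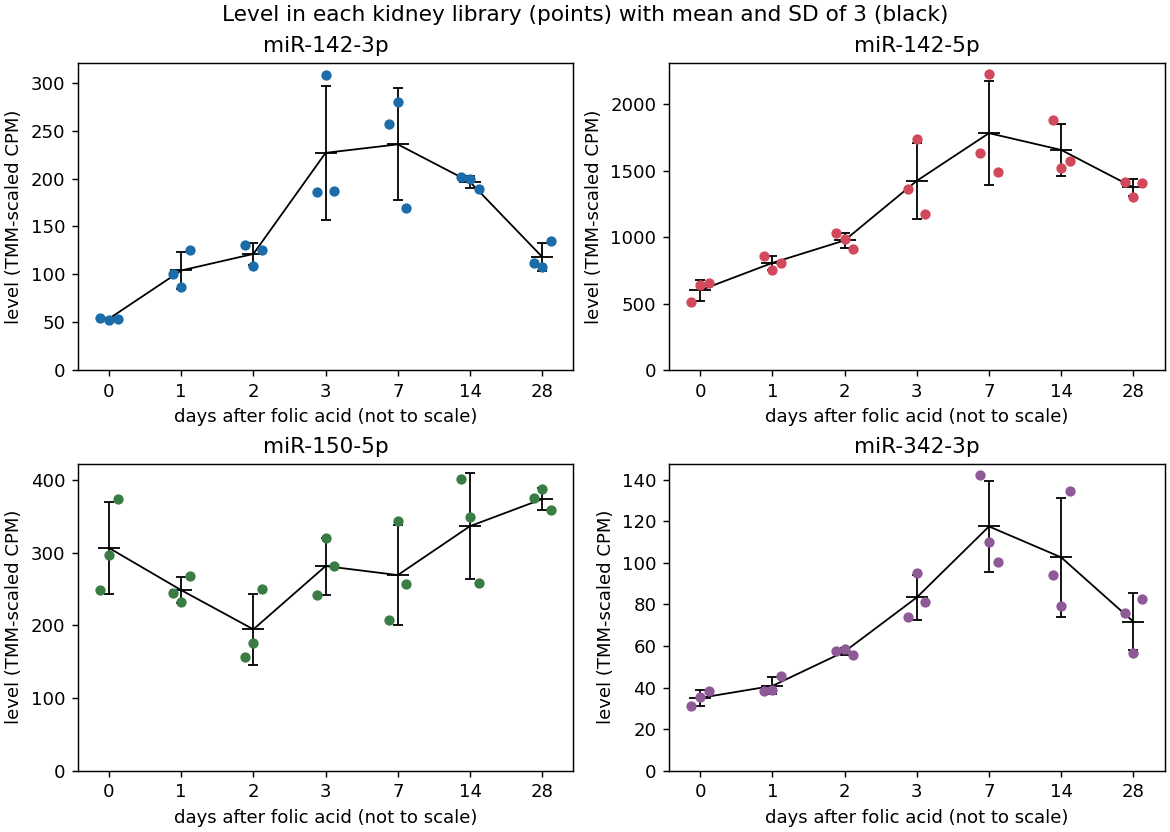
Level of each miRNA (TMM-scaled CPM, vertical axis from 0) in each of the 21 kidney libraries by day; points are libraries, black bars the mean and SD of 3. Both miR-142 arms have all later libraries above day 0, while miR-150-5p has its lowest mean, 194 CPM, on day 2 and its highest, 373 CPM, on day 28.

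Counts of called members were read against the share of all tested miRNAs called; 2 of the 4 members are arms of 1 hairpin. On day 1, 2 of 4 were called higher and 0 lower, where 25.3% of all tested miRNAs were called, 14.2% higher and 11.1% lower. Day 2 had 3 of 4 higher and 1 lower (background 43.4%, as 24.4% higher and 19% lower). From then on the count was 3 higher and 0 lower each time. The background was 49.4% for day 3 (30.4% higher, 19% lower), 52.4% for day 7 (29.7% and 22.7%), 42.9% for day 14 (25.1% and 17.9%) and 13% for day 28 (11.1% and 1.86%). On days 3 and 7, 49.4% and 52.4% of all miRNAs were called in either direction. Counts of so few members on those days are therefore not read as particular to them. The median change of the 4 was 0.32, 0.70, 1.23, 1.63, 1.48 and 1.06 on the 6 later days, and that of all tested miRNAs lay between -0.01 and 0.07. An F test over all 7 days called 4 of 4, against 63.1% of miRNAs, and miR-150-5p had the highest adjusted p among them (0.00526, and 0.0602 with library totals). All comparisons with day 0 share its 3 libraries. The background split of calls depends on the scaling. Library totals gave 65 higher and 27 lower for day 1 (61 and 48 with TMM), 143 and 47 for day 2 (105 and 82), 145 and 50 for day 3 (131 and 82) and 34 and 11 for day 28 (48 and 8). Upper-quartile scaling gave 102 and 124 for day 7 (128 and 98) and 40 and 29 for day 28.

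**Figure D2:**
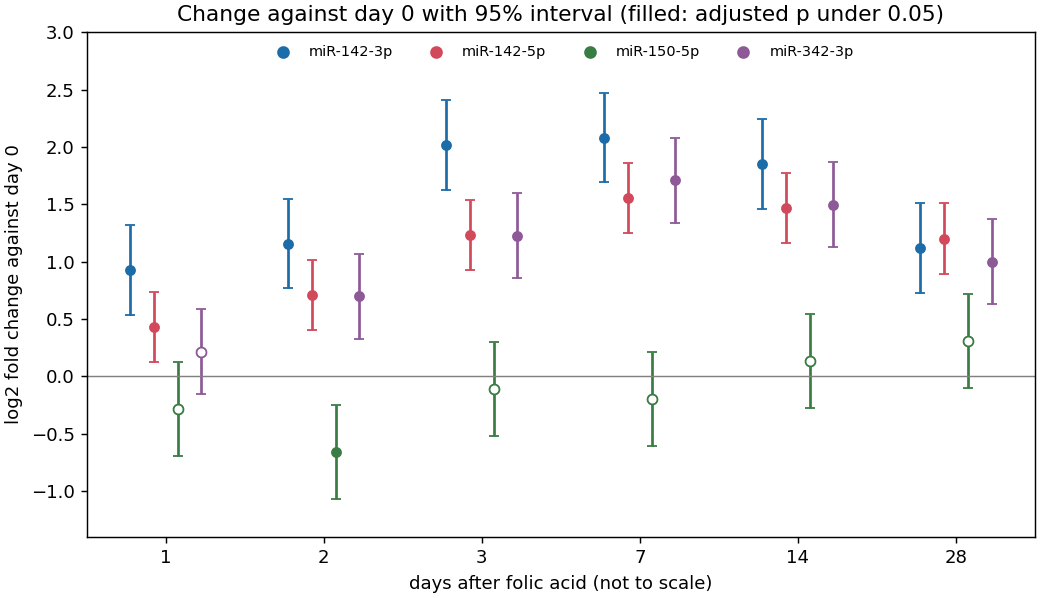
Log2 fold change of each miRNA against day 0 (vertical axis, log2(CPM + 1) scale) on each later day, with the 95% interval from limma; filled points had an adjusted p under 0.05. miR-142-3p reaches 2.08 on day 7, and miR-150-5p is called on day 2 alone, at -0.66.

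The late days (7, 14 and 28) were compared with the early days (1, 2 and 3) to ask in which phase the mean of each member was higher. All 4 were higher late, where 37.4% of miRNAs were called, 19.7% higher and 17.6% lower. Single days did not all follow the phase means. miR-142-3p averaged 227 CPM on day 3, against 196 on day 14 and 118 on day 28. miR-150-5p averaged 281 CPM on day 3 and 269 on day 7. The change was 0.69 for miR-342-3p (SE 0.10, limma adjusted p = 2.26e-05), 0.62 for miR-142-5p (SE 0.08, adjusted p = 7.82e-06), 0.43 for miR-150-5p (SE 0.11, adjusted p = 0.00454) and 0.32 for miR-142-3p (SE 0.11, adjusted p = 0.0263). The call of miR-142-3p was lost with library totals (0.172), with upper-quartile scaling (0.0951) and with no filter (0.0834). It was also lost without day 1 replicate 2 (0.0522), day 2 replicate 2 (0.0578), day 3 replicate 1 or 3 (0.072 and 0.0761), or day 7 replicate 1 or 2 (0.0672 and 0.0943). The background split was 85 higher and 76 lower with TMM, 49 and 118 with library totals, and 58 and 94 with upper-quartile scaling.

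Day 28 against day 7 asks how far each miRNA had come back. miR-142-3p was lower on day 28 by 0.96 on the log2 scale (95% interval -1.35 to -0.57, limma adjusted p = 0.000488), and miR-342-3p changed by -0.71 (95% interval -1.08 to -0.34, adjusted p = 0.004). For miR-142-5p the difference was -0.35 (95% interval -0.66 to -0.05), which did not pass (adjusted p = 0.0639). It did pass with library totals (0.00621) and in edgeR (0.0484), and without day 0 replicate 1, day 2 replicate 2, any of day 3 or day 7 replicate 3 (0.0277 to 0.0474). miR-150-5p was higher by 0.50 (adjusted p = 0.0494). That call was lost with library totals (0.239), pseudocount 0.5 (0.0501), no filter (0.0685), edgeR (0.0625) and DESeq2 (0.0558), and without any 1 of 11 libraries, up to 0.291 without day 7 replicate 1. The others were day 0 replicate 2, day 1 replicate 3, day 2 replicate 2, each of day 3, day 7 replicate 3, day 14 replicate 2, and day 28 replicates 1 and 2. Of the members 2 were lower and 1 higher, where 37.1% of all miRNAs were called, 20.6% lower and 16.5% higher. In numbers that was 71 higher and 89 lower, and 30 and 120 with library totals.

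Ratios of 2 miRNAs within a library were used to test whether members changed unequally, since scaling nearly cancels in them. Of the 4 ratios, both with miR-150-5p on top separated day 0 from all later libraries. miR-150-5p had 5.72 ± 1.23 times the reads of miR-142-3p on day 0, 1.18 ± 0.356 times on day 7 and 3.20 ± 0.492 times on day 28 (SD, n = 3). The day 0 libraries ran from 4.53 to 6.99, and all 18 later libraries lay between 0.805 and 3.61. The mean log2 ratio was lower on days 1 to 28 than on day 0 by 1.66 (exact two-sided permutation test of 18 against 3 libraries, p = 0.000752, the smallest it can give, adjusted p = 0.00602 over the 8 ratio tests). Against miR-342-3p, miR-150-5p went from 8.69 ± 0.911 on day 0 to 2.38 ± 0.849 on day 7 and 5.38 ± 1.33 on day 28. All 18 later libraries, at 1.46 to 6.88, were under the day 0 range of 8 to 9.72 (log2 difference -1.19, exact permutation p = 0.00301, adjusted p = 0.012). The adjusted p was 0.0561 without day 0 replicate 3. Neither ratio differed detectably between late and early days (exact permutation adjusted p = 0.688 and 0.433, 9 libraries against 9). That test compares the means of the 2 phases, and change between days within a phase counts as spread. miR-150-5p over miR-142-3p went from 2.42 on day 1 to 1.28 on day 3, and from 1.18 on day 7 to 3.20 on day 28.

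The arms of miR-142 moved by unequal amounts. At day 0 miR-142-5p had 11.2 ± 1.65 times the reads of miR-142-3p (SD, n = 3). The ratio was 7.90 ± 1.25 at day 1 and 6.42 ± 0.847 at day 3, and from 7.69 ± 1.23 at day 7 it came to 11.7 ± 1.14 at day 28. As a share of the reads of both arms, miR-142-3p went from 8.30% ± 1.22 on day 0 to 13.6% ± 1.52 on day 3 and 7.91% ± 0.743 on day 28. The shallowest library for these arms, day 0 replicate 1, gave 9.70% (Wilson 95% interval 8.53% to 11%, counting error only). On days 1 to 28 together, 14 of 18 libraries had a 5p to 3p ratio under all of day 0. The log2 ratio was lower than on day 0 by 0.43 (exact two-sided permutation p = 0.0338, adjusted p = 0.0493) and higher late than early by 0.30 (p = 0.037, adjusted p = 0.0493). Both calls sat at the threshold: permuting within replicate number gave an adjusted p of 0.0661 for each, and leaving out 1 library at a time ended the call in 16 of 21 cases for the first and 18 of 21 for the second. The first call held without day 0 replicate 1, day 2 replicate 2 or any of day 28. The second held with any of 3 libraries left out: day 0 replicate 1, day 2 replicate 2, and replicate 1 of day 7. The second comparison holds no day 0 library, so leaving out 1 of those altered only its adjustment over the 8 ratio tests. Without day 0 replicate 2 or 3 its difference stayed at 0.30, and the exact permutation adjusted p was 0.074. Day 28 (10.4 to 12.6) and day 7 (6.36 to 8.79) did not overlap, but 3 libraries against 3 cannot give an exact permutation p under 0.1.

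miR-342-3p was compared with miR-142-3p in the same way. Its reads were 0.653 ± 0.0782 times those of miR-142-3p at day 0 and 0.397 ± 0.0415 times at day 1 (SD, n = 3). The ratio was 0.380 ± 0.0649 at day 3 and 0.605 ± 0.0762 at day 28. The log2 ratio was lower after day 0 by 0.47 (exact two-sided permutation p = 0.0256, adjusted p = 0.0493) and higher late than early by 0.37 (p = 0.0119, adjusted p = 0.0317). The first of these was lost when any 1 of 12 libraries was left out, up to 0.175 without day 0 replicate 3. The others were day 0 replicate 2, each of day 1, day 2 replicates 1 and 3, day 3 replicates 1 and 3, day 7 replicate 2, and day 14 replicates 1 and 2. The second was lost without day 1 replicate 1 or 3 or day 3 replicate 1, up to 0.0568 without day 1 replicate 3.

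**Figure D3:**
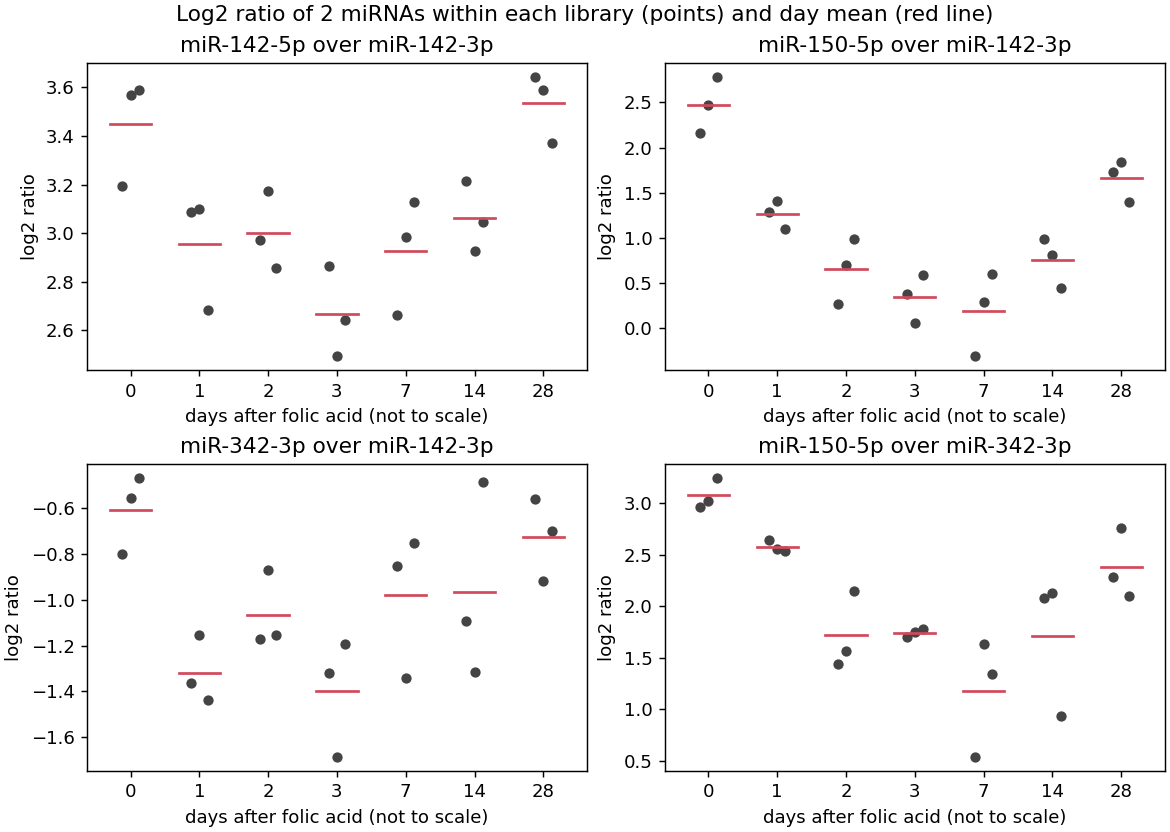
Log2 ratio of 2 miRNAs (vertical axis, log2(CPM + 1) values, axes do not start at 0) in each library by day; points are libraries and red lines day means. Both ratios with miR-150-5p on top have all 18 later libraries below day 0, and the ratio of the miR-142 arms returns from a mean log2 of 2.67 on day 3 to 3.53 on day 28.

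Likeness of pattern was measured as the root mean square difference of centred log2 values over the 21 libraries, against 292 other miRNAs that averaged 10 CPM or more. For miR-142-3p the nearest was miR-130b-3p (0.29), followed by miR-142-5p (0.32), miR-342-3p (0.34), miR-214-5p (0.34) and miR-146b-5p (0.35), against a median of 0.75 over all. For miR-142-5p they were miR-214-5p (0.23), miR-342-3p (0.25), miR-199a-5p (0.25), miR-181d-5p (0.28) and miR-199b-5p (0.31). For miR-342-3p they were miR-214-5p (0.17), miR-199a-5p (0.20), miR-142-5p (0.25), miR-181d-5p (0.26) and miR-181c-3p (0.30). Several of these, from the miR-199 and miR-214 loci, are known from mesenchymal cells. The list of lymphocyte and activated leukocyte miRNAs read below holds miR-181d-5p, and also miR-181b-5p, which is named next for miR-150-5p. The likeness is a description of 21 libraries that share the course of days. By day means alone, 4 of the 5 stayed among the nearest for miR-142-5p and for miR-342-3p, and 2 of 5 for miR-142-3p and miR-150-5p.

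For miR-150-5p the nearest were miR-497-5p (0.22), miR-195-5p (0.26), miR-195-3p (0.26), miR-181b-5p (0.26) and miR-99a-5p (0.26). The other members stood far from it: miR-142-5p ranked 219 of 292 in likeness, miR-342-3p 252 and miR-142-3p 268. Conversely, miR-342-3p ranked 2 and miR-142-3p 6 in likeness to miR-142-5p.

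Other leukocyte miRNAs were read beside the members. Of 5 myeloid miRNAs, 3 were higher on days 1 and 2, 4 on days 3 and 14, 5 on day 7 and 3 by day 28, with none lower. The share of all tested miRNAs called higher, given above, lay between 11.1% (day 28) and 30.4% (day 3). Both arms of miR-223 and both of miR-511 are in this list, so its counts are not of separate loci. Before injury miR-223-5p, miR-511-3p, miR-511-5p and miR-147-3p were scarce, with means of 1.61, 1.59, 0.751 and 0.567 CPM (1 to 9 reads per day 0 library). The median change of the myeloid list was 2.31 on day 7, against 0.07 for all miRNAs tested. miR-223-3p, the neutrophil and monocyte miRNA, went from 43.8 ± 10.4 CPM at day 0 to 141 ± 13.3 at day 1 and 244 ± 54.8 at day 7, and stood at 90.4 ± 12.5 by day 28 (SD, n = 3). Late against early the list was divided, with 2 higher, 2 lower and a median of 0.24 (19.7% of all miRNAs were higher and 17.6% lower). miR-223-3p changed by -0.33 and miR-147-3p by -0.60 (limma adjusted p = 0.0371 and 0.00984), while miR-511-3p changed by 1.38 and miR-511-5p by 0.80 (adjusted p = 4.77e-06 and 0.00867). miR-511-3p, known from macrophages, was at 1.59 ± 0.247 CPM at day 0, rose to 14.2 ± 5.99 on day 7 and stood at 4.21 ± 0.995 on day 28.

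Of 7 miRNAs of lymphocytes and activated leukocytes, 5 were tested. On day 2, 2 of these were higher and 3 lower, and at day 28, 3 were higher and none lower, with a median change of 0.47 against 0.03 for all miRNAs. The shares over all miRNAs were 24.4% higher and 19% lower on day 2, and 11.1% and 1.86% on day 28. miR-155-5p, induced in activated leukocytes, had 57.6 ± 2.77 CPM at day 0, its highest mean of 103 ± 7.00 at day 2 and 67.9 ± 5.22 by day 28. miR-146a-5p, a feedback repressor of NF-kB signalling, shared the low day 2 value of miR-150-5p: it fell by 0.82 on the log2 scale on day 2 (limma adjusted p = 0.00389) and was higher by 1.04 on day 14 and by 0.88 on day 28. miR-181a-5p also fell by 0.59 on day 2 and was higher by 0.47 on day 28. At 19659 ± 2895 CPM on day 0 it supplied most of the summed level of that list, and it is abundant in kidney as a whole. By contrast, miR-181d-5p had a higher mean on day 2 than at day 0, 155 against 115 CPM. It averaged 313 CPM by day 14 and 236 by day 28. The remaining tested miRNA of the list, miR-181b-5p, had a lower mean on day 2 than at day 0, 874 against 1126 CPM, and averaged 1287 by day 28.

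Markers of other cells moved along the same days. The 5 erythroid miRNAs in the table, which report on blood in the tissue, summed to 1296 to 3385 CPM at day 0, 4513 to 7660.3 at day 1, 4737 to 9608 at day 2 and then 1142 to 1774 at day 3. On day 2, when miR-150-5p was lower, 4 of these 5 were higher and none lower (24.4% and 19% of all miRNAs). On day 7, when miR-142 was highest, 0 of 5 were called and the sum was 768 to 2384 CPM. Of all miRNAs, 52.4% were called on day 7, 29.7% higher and 22.7% lower. The 6 mesenchymal miRNAs summed to 3769 to 4585 CPM on day 0 and 10915 to 11310.2 on day 7, where 6 of 6 were higher. The 7 tubular miRNAs fell in sum from a range of 119304 to 138122 CPM on day 0 to 68193 to 82583 on day 7, with 3 called lower and 1 higher. That sum was mostly miR-192-5p, at 120885 ± 10417 CPM on day 0 and 66356 ± 7583 on day 7 (SD, n = 3). miR-200a-3p and miR-215-5p were also lower on day 7, miR-200c-3p was higher (0.61 on the log2 scale, limma adjusted p = 0.0012), and miR-192-3p, miR-200b-3p and miR-429-3p did not pass. The 2 endothelial arms of miR-126 summed to 13237 to 15456 CPM on day 0 and 10543 to 11118 on day 7, both lower. The 4 smooth muscle miRNAs summed to 62423 to 80610.1 CPM on day 0 and 64772 to 79195 on day 7, with 0 higher and 1 lower. No marker of these lists that was in the table was at 0 in all 3 libraries of a day. The part of blood, mesenchymal, tubular, endothelial or smooth muscle RNA in the members' changes was not tested.

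**Figure D4:**
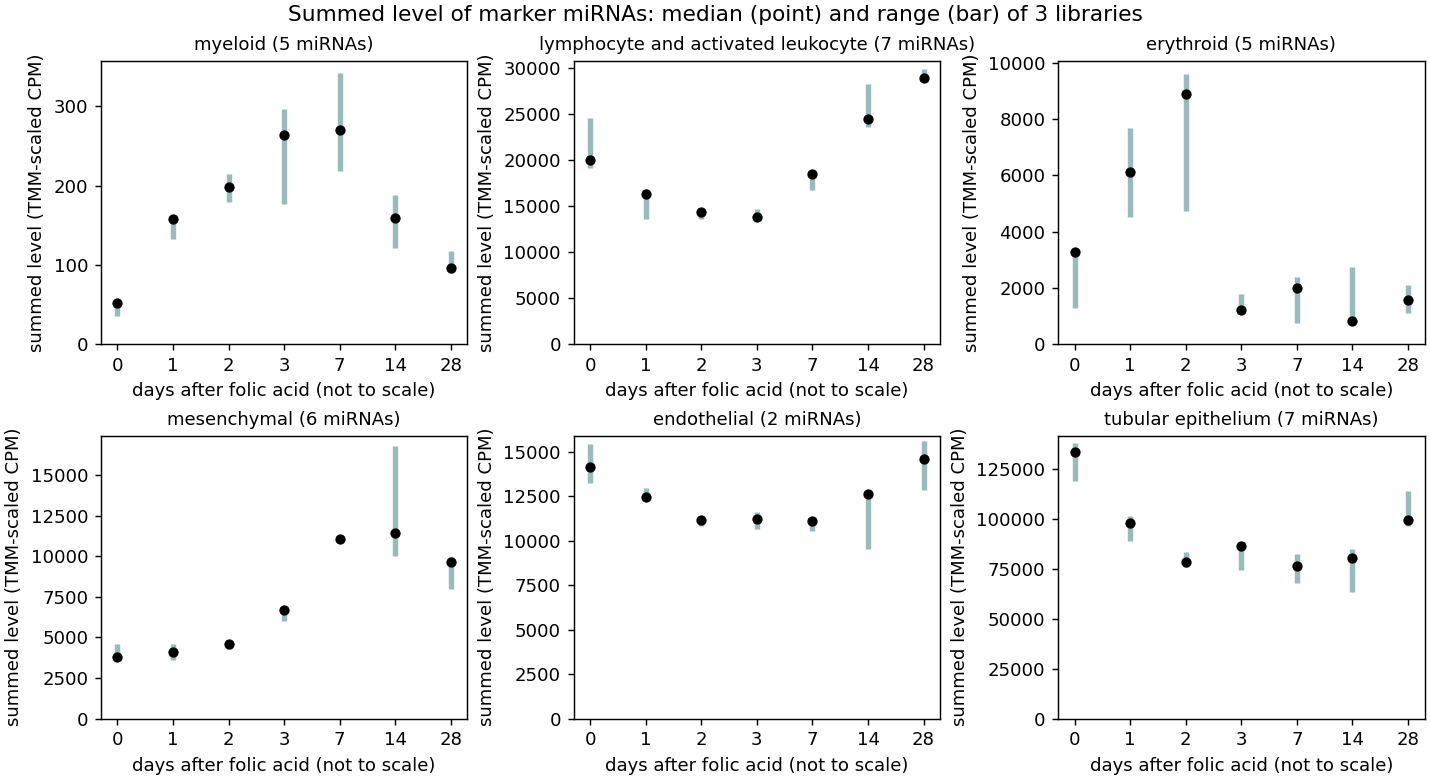
Summed level of each marker list (TMM-scaled CPM, vertical axis from 0) by day; points are medians and bars the range of 3 libraries. Myeloid miRNAs are highest on days 3 and 7, erythroid miRNAs on days 1 and 2, and mesenchymal miRNAs from day 7.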

How the data were processed

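Small RNA libraries of 21 kidney samples were counted per mature miRNA by the authors. The deposited values are CPM: each column sums to the same total, and low values are multiples of the CPM of 1 read. Per the submitters' processing notes, CASAVA 1.8 and mm9 were used. The aligner is not given in the sources used here, nor is the counter or the miRBase version. Whole reads were recovered for 100% of values within 0.05 of a read (largest distance 0.0353), and 3 reads, the limit a count of 0 allows, were worth 0.422 to 1.04 CPM, counting error only. filterByExpr (minimum count 10) left 431 of 1125 miRNAs, so depth was not limiting for the members.

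limma 3.58.1 (limma-trend) was fitted to log2(CPM + 1) after TMM scaling (edgeR 4.0.16), 1 fit over all libraries with a mean per day, and Benjamini-Hochberg adjustment over 431 miRNAs. A miRNA was called under an adjusted p of 0.05. Fold changes on this scale understate scarce miRNAs. Ratios of members used exact permutation over libraries, adjusted over 8 tests. Alternatives were library totals, RLE and upper-quartile scaling, pseudocounts 0.5 and 5, no filter, robust empirical Bayes, only the days compared, the replicate number as a block, edgeR quasi-likelihood and DESeq2 1.42.0 on the recovered reads, and leaving out each library. No replicate pair agreed within counting noise (chi-square per degree of freedom at least 20.4).

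The members and the lists were chosen with earlier results of these data known. Named miRNAs were the 4 members, the other arms of their hairpins, the miRNAs of the marker lists, and the 5 nearest to each member in pattern with a mean of at least 10 CPM. Of the tubular list 7 of 8 names and of the erythroid list 5 of 6 were found, and the others were not analysed here.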

Additional observations from a re-analysis of the deposited data

Results flagged for a closer look

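The effects against day 0 differed between days in limma, for all 4 miRNAs between late and early days and for 3 of 4 between day 28 and day 7, where miR-142-5p did not pass (adjusted p = 0.0639). Late against early, the log2 difference was 0.32 for miR-142-3p, 0.62 for miR-142-5p, 0.43 for miR-150-5p and 0.69 for miR-342-3p. Between day 28 and day 7 it was -0.96 for miR-142-3p, 0.50 for miR-150-5p and -0.71 for miR-342-3p. The sign for miR-150-5p was opposite to that of the other 2, but its call sat at the threshold (adjusted p = 0.0494). That call was lost with library totals (0.239) and without any 1 of 11 libraries. The late against early call of miR-142-3p (0.0263) was lost with library totals (0.172) and without any 1 of 6 libraries.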

How the results depend on the processing

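Values here are adjusted p unless named otherwise. Of the members' results under alternatives, 1108 kept their call, 32 lost it and 8 gained one; of the ratios 146 kept it and 54 lost it. No call changed sign; the uncalled log2 differences of miR-150-5p ran from -0.29 to 0.08 on day 3 and from -0.03 to 0.29 on day 14. Library totals gave 0.172 for miR-142-3p late against early, 0.0662 for miR-150-5p on day 2, 0.0602 for its F test, 0.239 for its day 28 against day 7, and 0.00621 for miR-142-5p in that last comparison. Upper-quartile scaling gave 0.0951 for miR-142-3p late against early. With no filter the values were 0.0834 there, 0.0772 for miR-142-5p on day 1 and 0.0685 for miR-150-5p, day 28 against day 7. That last result had 0.0501 with pseudocount 0.5, 0.0625 in edgeR and 0.0558 in DESeq2; edgeR gave 0.0484 for miR-142-5p. The ratio of the miR-142 arms had 0.0822 with pseudocount 5 (days 1 to 28 against day 0) and 0.0516 with pseudocount 0.5 (late against early).

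Replicate numbers were shared by the days. Over all tested miRNAs, deviations from the day means had a median correlation of -0.0193 between same-numbered libraries (15 of 63 pairs above 0.1). Between differently numbered libraries of different days the median was 0.00232. Whether an equal number marks a shared batch is not in the labels and was not tested. With the replicate block the ratio of the miR-142 arms had 0.0661 in both comparisons, and no other call of a member or ratio changed.

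Leaving out 1 library at a time gave 0.00204 to 0.0943 for miR-142-3p late against early, 0.0139 to 0.158 for miR-142-5p on day 1, 0.0277 to 0.269 for miR-142-5p and 0.0153 to 0.291 for miR-150-5p, day 28 against day 7. For ratios against day 0 it gave 0.0304 to 0.175 for the miR-142 arms, 0.00351 to 0.0561 for miR-150-5p over miR-342-3p and 0.0281 to 0.175 for miR-342-3p over miR-142-3p. Late against early it gave 0.0254 to 0.0978 for the arms and 0.0118 to 0.0568 for miR-342-3p over miR-142-3p. Day 28 against day 0 had 56 calls, and 37 without day 28 replicate 1. The F test has no value with only the days compared. Fewer libraries enter each of these fits, except the late against early ratios without a day 0 library, where only the adjustment changed. For the other changes the cause was not tested. Depth was lowest for miR-342-3p.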
